A study of Mus musculus with 20 samples.

Results

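The relation between H3K4me3 and H3K4me1 was described in Ash2l fl/fl fibroblasts that had received vehicle only, that is, in the state before Ash2l was lost. Of the 20 libraries of the series, 4 belong to this comparison, 1 per mark in each of the lines iMEF1 and iMEF2. The lines were derived from separate litters of mouse embryos, carry floxed exon 4 of Ash2l together with the tamoxifen-dependent recombinase Cre-ER, and were immortalized with an shRNA against p19Arf. The cells (KO cells -HOT) were kept for 5 days in 100% ethanol, the solvent of 4-hydroxytamoxifen (HOT), so that exon 4 was not targeted for deletion although the recombinase was present. Each H3K4me3 region was paired with all H3K4me1 regions with which it shared at least 1 bp, which gave 16899 pairs from 21575 H3K4me3 and 117165 H3K4me1 regions. A stretch of chromosome 1 with 768 H3K4me3 regions was left out because the H3K4me1 values of iMEF1 there were not usable. Of these pairs, 15902 held more than 20 reads on average over the 2 marks in both lines and were tested. In bulk chromatin it cannot be told apart whether both marks lie on the same nucleosome, on neighboring nucleosomes or in different cells.

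Methylation of lysine 4 of histone H3 is placed by KMT2 complexes, in which Ash2l, Dpy30, Rbbp5 and Wdr5 form a core that stimulates the catalytic subunit. The trimethylated form typically marks promoters of active genes, in particular those with CpG islands, to which CXXC domain proteins bind. The monomethylated form is typical for enhancers and for the flanks of promoters, and the same lysine of a histone tail can carry only one of both.

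The values are reads per region, and reads per kb of region (RPK) were used because H3K4me1 regions and H3K4me3 regions differ in width. The 22343 H3K4me3 regions of the whole table had 4588430 reads in iMEF1 and 17532800 in iMEF2 after the scaling of the authors. The H3K4me1 regions had 6157647 reads in iMEF1, over the 117165 usable regions, and 7499682 in iMEF2, over all 122780 regions. The medians were 113 and 507 reads per H3K4me3 region, and 32 and 36 reads per H3K4me1 region over these sets. Over the 117165 regions the H3K4me1 median of iMEF2 was 37. Both tables list one common set of coordinates for both lines, and in which libraries each region was called is not given in the sources used here. Marker lists of fibroblasts and other cells, chosen with earlier results of these data known, were described rather than used as an independent check. All 33 fibroblast and matrix genes that could be scored had both marks near a start site, compared to 54.5% of 21489 protein-coding genes. None of 10 blood, 7 liver, 7 muscle and 8 pluripotency genes had both. Of the remaining lists, 2 of 6 endothelial genes (Kdr and Tek), 2 of 11 epithelial and 3 of 14 neural genes had both marks. All 15 housekeeping genes also had both marks, so both marks are not particular to fibroblast genes.

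The following stretches of the reference sequence show the kinds of sites that are compared below, with CpG dinucleotides in capitals. They lie within the regions and outside annotated exons (NCBIM37, which is mm9, plus strand, 200 bases each), and were chosen after the values were seen. Por and Zfp36l2 are promoters richer in H3K4me3 than the median pair, Deptor is richer in H3K4me1, the Pde5a promoter met no H3K4me1 region, and the Slc25a37 site is an H3K4me1 region without H3K4me3.
Por chr5:136165391-136165590: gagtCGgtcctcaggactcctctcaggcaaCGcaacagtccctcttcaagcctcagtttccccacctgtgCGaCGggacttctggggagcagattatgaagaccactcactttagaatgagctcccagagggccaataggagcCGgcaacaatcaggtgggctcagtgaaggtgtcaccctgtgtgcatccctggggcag
Zfp36l2 chr17:84586501-84586700: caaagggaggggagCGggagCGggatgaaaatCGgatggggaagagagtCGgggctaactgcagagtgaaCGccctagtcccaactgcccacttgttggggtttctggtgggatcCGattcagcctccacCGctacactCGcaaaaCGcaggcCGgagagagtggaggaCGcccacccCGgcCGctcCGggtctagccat
Deptor chr15:54966423-54966622: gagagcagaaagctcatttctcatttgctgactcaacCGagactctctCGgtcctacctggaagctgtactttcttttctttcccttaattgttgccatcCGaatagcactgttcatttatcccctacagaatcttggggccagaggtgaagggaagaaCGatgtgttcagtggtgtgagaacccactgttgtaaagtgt
Pde5a chr3:122432933-122433132: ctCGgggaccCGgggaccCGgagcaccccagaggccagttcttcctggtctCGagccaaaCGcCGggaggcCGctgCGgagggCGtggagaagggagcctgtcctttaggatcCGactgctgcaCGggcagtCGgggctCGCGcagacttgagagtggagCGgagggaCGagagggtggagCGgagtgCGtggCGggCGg
Slc25a37 chr14:69874148-69874347: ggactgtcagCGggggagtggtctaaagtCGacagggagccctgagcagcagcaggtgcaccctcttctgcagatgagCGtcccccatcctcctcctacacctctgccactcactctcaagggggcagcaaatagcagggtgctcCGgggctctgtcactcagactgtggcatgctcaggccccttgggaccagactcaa
The Zfp36l2 stretch held 14 and the Pde5a stretch 20 CpG, while the Por, Deptor and Slc25a37 stretches held 5, 4 and 4. The only match to the AP-1 motif (letters TGANTCA, on either strand) among these stretches was TGACTCA at base 29 of Deptor.

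Most H3K4me3 regions lay over H3K4me1, whereas most H3K4me1 lay apart from H3K4me3. Of 15053 H3K4me3 regions at promoters (within 3000 bp of a start site in the level lists of the authors), 12583 met H3K4me1, or 83.6% (95% Wilson interval 83 to 84.2). Of the 6522 H3K4me3 regions outside these lists, called distal in the following, 66.2% met H3K4me1 (65.0 to 67.3). Conversely, 64.0% of 28367 H3K4me1 regions within 3000 bp of a GENCODE start site met H3K4me3 (63.4 to 64.5), compared to 4.44% of 88798 H3K4me1 regions farther away (4.31 to 4.58). These intervals cover counting error only. In base pairs, the shared sequence was 67.0% of the H3K4me3 regions and 16.7% of the H3K4me1 regions.

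The H3K4me3 promoter regions that met H3K4me1 were wide and strong. They had a median width of 1930 bp with 153 RPK of H3K4me3 in iMEF1 and 582 RPK in iMEF2. The 2470 promoter regions without H3K4me1 had a median width of 642 bp with 49.1 and 189 RPK. Thus 90.5% (iMEF1) and 88.8% (iMEF2) of all H3K4me3 reads fell into promoter regions that met H3K4me1. For H3K4me1 the order was opposite. H3K4me1 regions near start sites had 30.0 and 39.1 RPK where they met H3K4me3, compared to 48.6 and 57.6 RPK where they did not. Distal H3K4me1 regions without H3K4me3, which are the largest class with 84851 regions, had 48.7 and 55.2 RPK and held 73.1% and 71.6% of the H3K4me1 reads.

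Around start sites, coverage by H3K4me1 regions had a dip just upstream of the start site, between a shoulder on each side. At 13700 start sites nearest to promoter H3K4me3 regions, the start site itself was covered by an H3K4me3 region in 93.2% and by an H3K4me1 region in 41.5%. The coverage by H3K4me1 reached 53% at 400 bp upstream, was 39.0% at 100 bp upstream, the lowest value between the shoulders, and was highest with 67.1% at 500 bp downstream. H3K4me3 covered 78.3%, 87.3% and 87.8% at these positions. Its own maximum of 94.8% was at 100 bp downstream, where H3K4me1 covered 50.1%. At 2000 bp upstream the values were 7.28% for H3K4me3 and 14.6% for H3K4me1, and at 2000 bp downstream 16.4% and 26.9%. The mean RPK was counted as 0 where no region was present, and each region carried its average over its whole width. Since the coordinates are common to both lines, its dip follows from the coverage and is not a separate observation in each line. At the start site, H3K4me3 was 135 RPK against 11.7 RPK of H3K4me1 in iMEF1 and 508 against 14.7 RPK in iMEF2. At 500 bp downstream, H3K4me3 was 134 against 18.8 RPK of H3K4me1 in iMEF1 and 500 against 23.7 RPK in iMEF2. Thus the mean of H3K4me3 was similar at both positions, while that of H3K4me1 was lower at the start site, where fewer sites were covered by H3K4me1. The start sites were selected for H3K4me3, so the height of its curve is set by that choice.

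**Figure D1:**
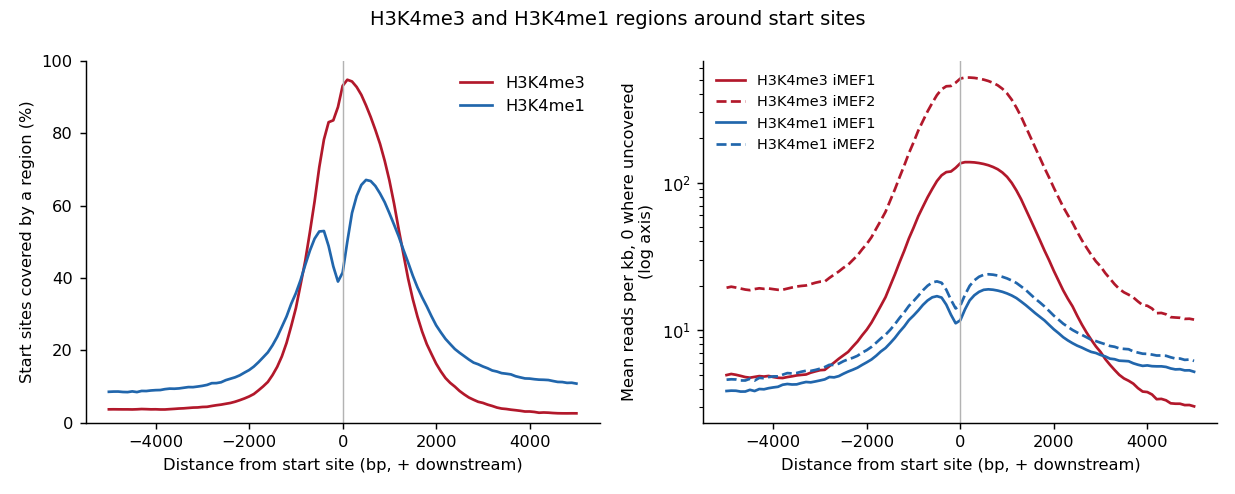
Coverage of 13700 start sites by regions of H3K4me3 (red) and H3K4me1 (blue). Left, percent of start sites covered at each distance in bp; right, mean reads per kb (log axis) in iMEF1 (solid) and iMEF2 (dashed). H3K4me1 dips to 39.0% at 100 bp upstream between shoulders of 53% upstream and 67.1% downstream.

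The density of H3K4me1 was higher at some distance from H3K4me3 than next to it, up to 10000 bp, and was lower again beyond. Regions centered less than 250 bp from the center of an H3K4me3 region (7021 regions) had a median of 28.1 RPK of H3K4me1 in iMEF1 and 36.9 RPK in iMEF2. Between 1000 and 1500 bp the medians were 39.0 and 51.3 RPK, and between 5000 and 10000 bp they were 50.5 and 58.6 RPK. Beyond 100000 bp, where 25503 regions lay, the values were 46.6 and 49.6 RPK. The interquartile ranges overlapped between these distances, for example 19.4 to 40.2 RPK below 250 bp and 29.2 to 50.1 RPK at 1000 to 1500 bp in iMEF1.

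The pairs were then compared by the log2 ratio of H3K4me3 to H3K4me1 RPK. The median pair had a 4.21-fold excess of H3K4me3 in iMEF1 and a 13.1-fold excess in iMEF2. Since both marks were precipitated with different antibodies and no external standard was used, these levels cannot be compared between marks or lines, and all ratios below are given relative to the median pair of the line. Promoter and distal pairs differed in both marks. The 12178 promoter pairs had medians of 155 RPK of H3K4me3 against 30.1 RPK of H3K4me1 in iMEF1, and 588 against 38.7 RPK in iMEF2. The 3724 distal pairs had 31.5 against 46.5 RPK in iMEF1 and 174 against 59.0 RPK in iMEF2. Relative to the median pair, the log2 ratio was 0.28 and 0.23 at promoters and -2.66 and -2.15 at distal pairs, and the difference was 2.93 in iMEF1 and 2.38 in iMEF2. Distal pairs thus had lower H3K4me3 and higher H3K4me1 in both lines. With 2 lines an exact test cannot give a p-value below 0.5, so this difference is given without a test. Of the distal pairs, 697 lay within 3000 bp of a GENCODE start site, and their medians were -1.88 and -1.47, compared to -2.77 and -2.23 for the others.

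**Figure D2:**
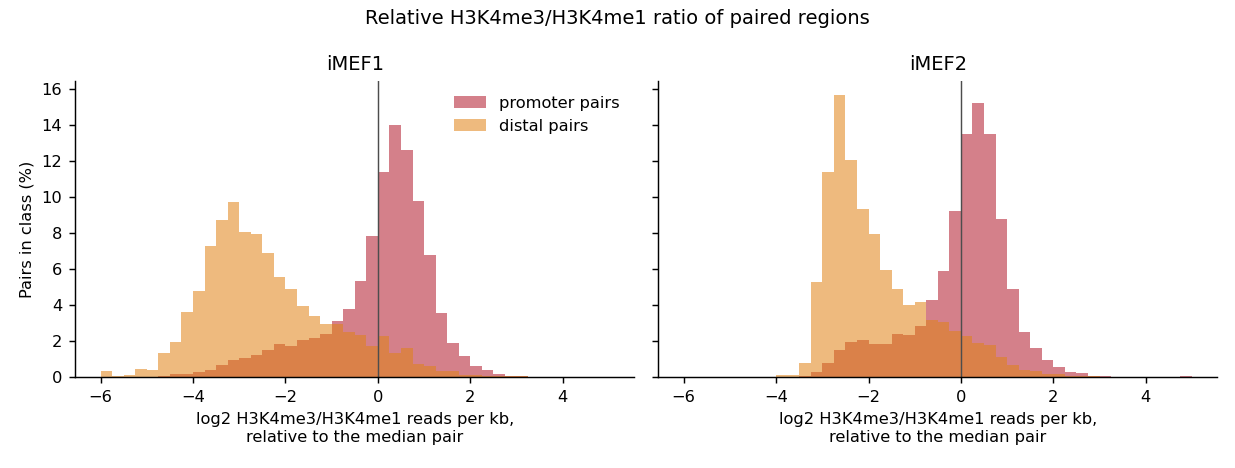
Distribution of the log2 ratio of H3K4me3 to H3K4me1 reads per kb relative to the median pair, for promoter pairs (red) and distal pairs (orange), as percent of each class, in iMEF1 (left) and iMEF2 (right). Values beyond the axis are in the outermost bars. Promoter pairs center at 0.28 and 0.23 and distal pairs at -2.66 and -2.15.

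The lines agreed in the side of the ratio for 88.3% of the pairs. By limma, 2390 pairs (15.0% of those tested) were richer in H3K4me3 than the median pair and 5114 pairs (32.2%) were richer in H3K4me1. These counts depend on the median as the point of reference. If each library was scaled to all its reads in regions instead, which moves the median pair by 2.50 and 2.48 on the log2 scale, 12012 pairs were called richer in H3K4me3 and 223 richer in H3K4me1. Without the block by line the counts were 3935 and 5073, and edgeR on whole reads called 4234 and 5324. With the median as reference, 2308 of the 12178 promoter pairs (19.0%) were richer in H3K4me3 and 2059 (16.9%) richer in H3K4me1, whereas of the distal pairs 82 (2.20%) and 3055 (82.0%) were called. The limma p-values rest on a spread pooled over all pairs (4.30 degrees of freedom), because 2 lines alone give little information for one pair. A count without a test gave 977 pairs that were more than 2-fold above the median pair in both lines (6.14%) and 4419 that were more than 2-fold below (27.8%). The first count was 1466 without iMEF1, 1902 without iMEF2 and 1498 with only the H3K4me1 region of largest overlap.

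The ratio changed with the width and the position of the regions. When pairs were divided into 10 groups by the width of the H3K4me3 region, the narrowest group (median width 283 bp) had 23.4 RPK of H3K4me3 against 51.2 RPK of H3K4me1 in iMEF1 and 139 against 63.9 RPK in iMEF2. From the fifth group on (median width 1586 bp and more) the H3K4me3 medians were between 146 and 177 RPK in iMEF1, and those of H3K4me1 between 28.2 and 29.8 RPK. Thus the width separated narrow from wide regions but not the wide regions from each other. The 3906 H3K4me3 regions located inside one H3K4me1 region had a relative log2 ratio of -2.64 and -2.19, and 1594 of these were at promoters. The 3135 pairs in which the H3K4me1 regions were inside the H3K4me3 region had 0.61 and 0.63. The median width of the H3K4me3 regions was 585 bp in the first and 1731 bp in the second class. The part of width in this difference was not tested.

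Across the tested pairs, the marks were ordered in opposite ways. The Spearman correlation between H3K4me3 and H3K4me1 RPK was -0.52 in iMEF1 and -0.59 in iMEF2 over 15902 pairs, and -0.30 and -0.39 over the promoter pairs alone. The same correlation was 0.90 between the H3K4me3 libraries and 0.78 between the H3K4me1 libraries of both lines. The points are regions of the same libraries, so no p-value is given. Each mark was divided by the width of its own regions. Pairs with few reads of both marks were left out by the read minimum, which favors a negative correlation. The size of this effect was not tested. The authors divided promoters by their H3K4me3 counts with and without HOT into high, medium and low. In iMEF1, H3K4me1 was met by 98.9% of the high, 77.8% of the medium and 51.1% of the low promoters. In iMEF2 the shares were 99.8%, 83.2% and 45.7%. Where H3K4me1 was met, its median was 28.5, 32.3 and 42.2 RPK in iMEF1 and 36.8, 39.9 and 58.2 RPK in iMEF2 from high to low. Low H3K4me3 promoters thus met H3K4me1 less often, and at higher density where they did. Their H3K4me3 regions were also narrower. From high to low, the median widths were 2288, 1308 and 487 bp in iMEF1 and 2517, 1443 and 388 bp in iMEF2. The part of width in these differences was not tested.

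Individual promoters displayed the extremes. At Por, which encodes cytochrome P450 oxidoreductase, the H3K4me3 region (chr5:136164931-136166045, 1115 bp) had 299 and 873 RPK of H3K4me3 against 5.36 and 5.36 RPK of H3K4me1, 3.44 above the median pair (log2, SE 0.21, limma adjusted p = 0.0039). Zfp36l2, an RNA-binding protein that promotes mRNA decay, had 278 and 895 RPK against 6.71 and 4.79 RPK, and was 3.33 above (SE 0.24, limma adjusted p = 0.0039). Gnb2, a beta subunit of heterotrimeric G proteins, had 225 and 823 RPK against 4.64 and 5.15 RPK. These promoters were high in H3K4me3 and had 4 to 10 reads of H3K4me1 in each line (4 and 4 at Por). The other 5 named promoters of this direction (Ppp2r1a, Bclaf3, Pqbp1, Fam171b and Fryl) had H3K4me1 regions of 200 to 462 bp with 0 to 4 reads, so their ratios of 3.32 to 4.20 rest on very few H3K4me1 reads and depend on the pseudocount. The stronger promoter region of Ppp2r1a (1902 bp) was 0.93 above the median pair and was not called (limma adjusted p = 0.058). Fam171b passed with the block by line (limma adjusted p = 0.046) but not without it (0.080).

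The opposite extreme were narrow H3K4me3 regions within wide H3K4me1 regions. At Deptor, an inhibitor of mTOR, 342 bp of H3K4me3 (chr15:54966353-54966694) with 19.7 and 119 RPK met 4359 bp of H3K4me1 with 88.3 and 84.0 RPK, with a relative log2 ratio of -3.70 (SE 0.31, limma adjusted p = 0.0039). Itgbl1, a secreted protein related to integrins, had 9.23 and 119 RPK of H3K4me3 against 54.4 and 67.9 RPK of H3K4me1. Klhl33 had 10.98 and 124 RPK against 50.9 and 77.6 RPK. Deptor, Itgbl1 and Klhl33 had no other H3K4me3 region at the promoter. In contrast, the extreme regions of Rps24 and Abl1 were minor ones next to a strong promoter region. The strongest regions of these genes had 181 and 215 RPK of H3K4me3 in iMEF1 and were close to the median pair, at -0.03 and 0.32. Igf1, a secreted growth factor, had a narrow region of 208 bp with 3.61 and 124 RPK of H3K4me3 against 47.8 and 60.2 RPK of H3K4me1. Its larger region of 2445 bp had relative log2 ratios of -2.34 in iMEF1 and -0.57 in iMEF2 (mean -1.46) and did not pass the test (limma adjusted p = 0.066). Both regions of Igf1 met the same H3K4me1 region, so pairs are not independent of each other. The remaining low promoters, Carlr and Pamr1, had a second region that was also called richer in H3K4me1. In iMEF1, the extreme regions named here held 0.75 (Igf1 and Carlr) to 6.75 (Deptor and Klhl33) scaled reads of H3K4me3, so their ratios in that line rest on few reads.

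Among distal pairs, the highest ratios included one near Nr2f1, an orphan nuclear receptor, at 26810 bp from the start site, with 184.5 and 674 reads of H3K4me3 against 3 and 5 reads of H3K4me1. Sirt5, Strbp and Thumpd1 were named for the nearest GENCODE gene and lay at most 339 bp from its start site, thus they are distal by the lists of the authors only. Of the 82 distal pairs called richer in H3K4me3, 31 were within 3000 bp of a GENCODE start site. At the low end, a region of 208 bp near Mecom, a zinc finger transcription factor, had 0.75 and 29.7 reads of H3K4me3 and met an H3K4me1 region of 4058 bp with 238 and 265 reads. The regions near N6amt1, Epb4.1l2, Ctnnd1 and Tmem135 were similar, with 200 to 263 bp and 0.75 scaled reads of H3K4me3 in iMEF1, which is a single read before scaling. The Ctnnd1 and Tmem135 regions lay at positions -147 and -1909 bp from a GENCODE start site.

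Some regions carried one mark only. The promoter regions with most H3K4me3 reads but no H3K4me1 were Pde5a, Tox, Sfi1, Rpl39, Meg3, Zfp777, Tmsb4x and Sall1. Pde5a, a cGMP-specific phosphodiesterase, had 186 and 755 RPK in a region of 2710 bp (chr3:122431813-122434522), and Tox, an HMG box factor, had 181 and 683 RPK. These densities were above the medians of promoters that met H3K4me1. The Sfi1 region had 667 and 1524 RPK within 946 bp, the highest density of the 8. Meg3 is an imprinted long non-coding RNA and had 125 and 547 RPK. The densest wide H3K4me1 regions without H3K4me3 were near Gvin1, Slc25a37, Entpd4, Otogl, Srfbp1, Zhx2 and BC028471. The site near Slc25a37, a mitochondrial iron importer, had 90.3 and 124 RPK over 3612 bp and was 24549 bp from the nearest H3K4me3 region. The Zhx2 site had 96.3 and 101 RPK over 1994 bp at 34813 bp from H3K4me3. Gvin1 belongs to a family of similar genes, and reads may not be assigned to one copy with certainty.

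To describe genes, the marks within 1000 bp of any annotated start site were scored for 21489 protein-coding genes. Both marks were present at 11712 genes (54.5%), H3K4me3 alone at 1373 (6.39%), H3K4me1 alone at 851 (3.96%) and neither at 7553 (35.1%). In several lists of general cell functions, every scored gene carried both marks. This was found for all 15 housekeeping genes, all 66 genes of cytosolic ribosomal proteins and all 41 genes of cell cycle and replication. It also held for all 39 genes of oxidative phosphorylation, all 26 immediate early genes and all 19 scored genes of KMT2 complexes. This holds for the listed genes and this window only. Rpl39, a ribosomal protein gene whose promoter region met no H3K4me1, is not in the list. Rpl27, E2f2, Top2a and Ndufv1 were scored with both marks but also had a promoter H3K4me3 region that met no H3K4me1. Homeobox genes differed in pattern, since of 106 genes 64 had both marks, 23 (21.7%) had H3K4me3 alone, none had H3K4me1 alone and 19 had neither. The class with H3K4me3 alone included Hoxd8, Hoxd9, Hoxd12, Hoxd13, Otx2 and Isl1, whereas Hoxb1 to Hoxb9 had neither mark. Of 67 other developmental transcription factors, 10 (14.9%) had H3K4me3 alone, among them Foxd1, Tbx5 and Zic1. Of the markers of other cells, many had neither mark, namely 7 of 14 neural, 8 of 10 blood, 5 of 7 muscle, 7 of 7 liver, 4 of 8 pluripotency, 3 of 6 endothelial and 5 of 11 epithelial genes. The neural genes Syn1, Nefl, Olig2 and Slc17a7 and the pluripotency genes Sox2, Esrrb, Dppa3 and Utf1 had H3K4me3 alone. H3K4me1 alone was present at Csf1r and Laptm5 of the blood list and at Pecam1 of the endothelial list. The epithelial list held both kinds, with H3K4me3 alone at Epcam and Krt18 and H3K4me1 alone at Krt8 and Cldn4, as did the muscle list with Tnni3 (H3K4me3) and Myh1 (H3K4me1). Likewise, 4 of 38 secreted factors of senescent cells, Ccl2, Mmp3, Mmp9 and Mmp13, had H3K4me1 alone. These are a chemokine and matrix metalloproteinases.

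**Figure D3:**
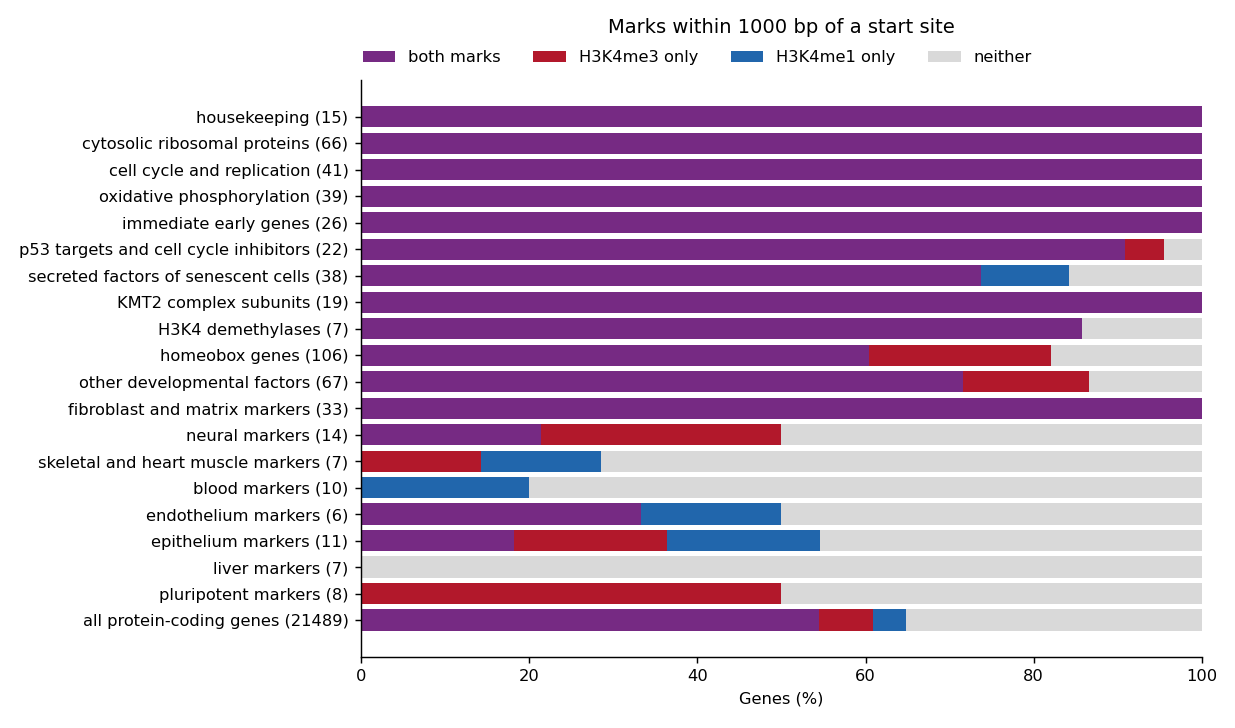
Percent of genes of each list with both marks, H3K4me3 only, H3K4me1 only or neither within 1000 bp of a start site; the number of scored genes is given in parentheses. H3K4me3 without H3K4me1 makes up 21.7% of homeobox genes and 6.39% of all protein-coding genes.

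The ratio was next described per gene, with the H3K4me3 region closest to the start site. Of 10362 genes with a tested promoter pair, 19.6% were richer in H3K4me3 and 13.4% richer in H3K4me1 than the median pair, and their median relative log2 ratio was 0.30. The lists for proliferation and protein synthesis had more calls for H3K4me3 than for H3K4me1. Of 38 genes of cell cycle and replication, 18 (47.4%) were richer in H3K4me3 and 1 in H3K4me1, with a median of 0.71. Mcm5, a subunit of the replicative helicase, had 206 and 760 RPK of H3K4me3 against 13.5 and 17.8 RPK of H3K4me1 (1.70 above the median pair, SE 0.21, limma adjusted p = 0.0058). Cdc25a, Gins2 and E2f3 were also called. The single gene in the other direction, Cdk4, had a second and stronger promoter region that was 2.29 above the median pair. Of 50 genes of cytosolic ribosomal proteins, 20 were richer in H3K4me3 and 3 in H3K4me1, with a median of 0.63. The highest was Rpl36 with 201 and 702 RPK against 14.8 and 9.84 RPK. Of 30 genes of oxidative phosphorylation, 8 were richer in H3K4me3 and 1 in H3K4me1 (median 0.50). Of 14 housekeeping genes none was richer in H3K4me3. Actb had 210 and 710 RPK of H3K4me3 against 52.7 and 71.2 RPK of H3K4me1, and Gapdh had 217 and 720 RPK against 29.6 and 36.0 RPK, and neither was called. Eef1a1 was called richer in H3K4me1 for a region of 598 bp, while its main region was 2.50 above the median pair.

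Of 18 KMT2 complex genes, 5 (27.8%; Kmt2a, Kdm6a, Cxxc1, Dpy30 and Kmt2c) were richer in H3K4me3 and none in H3K4me1, compared to 19.6% and 13.4% of all genes, with a median of 0.55. Kmt2a, a catalytic subunit, had 224 and 632 RPK against 8.86 and 12.3 RPK. Ash2l was at the median, with 187 and 734 RPK of H3K4me3 against 42.9 and 46.3 RPK of H3K4me1 (0.14 above, SE 0.22, limma adjusted p = 0.62). Of 4 genes in the list of demethylases, Kdm1b and Kdm2b were richer in H3K4me3. Among p53 targets and cell cycle inhibitors, 4 of 18 were richer in H3K4me3 (Rbl1, Plk2, Rbl2 and Trp53, the gene of p53 itself) and none in H3K4me1. The share of 22.2% is near that of all genes.

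Of 32 fibroblast and matrix genes, 5 (15.6%) were richer in H3K4me3 and 6 (18.8%) in H3K4me1, with a median of 0.16. These shares are near those of all genes (19.6% and 13.4%), and the members are given for their own values. Timp3, an inhibitor of metalloproteinases, had 235 and 764 RPK of H3K4me3 against 8.28 and 13.6 RPK of H3K4me1, and Pdgfra, a receptor of platelet-derived growth factor, had 143 and 686 RPK against 13.5 and 17.3 RPK. On the other side, Dcn (decorin) had 24.4 and 163 RPK against 66.2 and 70.2 RPK (relative log2 ratio -2.99, SE 0.32, limma adjusted p = 0.0043). Lum (lumican) had 11.9 and 163 RPK against 45.3 and 36.4 RPK. Postn, Lox and Fap were also richer in H3K4me1. In Lum, Fap and Postn the relative log2 ratio was lower in iMEF1 (-3.92, -3.52 and -3.57) than in iMEF2 (-1.57, -1.30 and -2.48). Col1a2 was called for a narrow region of 493 bp, while its main region of 6691 bp was 0.28 above the median pair (limma adjusted p = 0.42). Col1a1 and Vim, with 0.29 each, were close to the median of all genes.

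Of 28 genes of secreted factors of senescent cells, 3 (Tgfb2, Cxcl12 and Tgfb1) were richer in H3K4me3 and 7 (Il6, Igfbp6, Angptl4, Cxcl10, Igfbp3, Cxcl5 and Inhba) in H3K4me1, that is 25% compared to 13.4% of all genes. Il6, an inflammatory cytokine, had 17.0 and 149 RPK of H3K4me3 against 37.9 and 53.5 RPK of H3K4me1 (relative log2 ratio -2.71, SE 0.31, limma adjusted p = 0.0048). Tgfb2 had 185 and 774 RPK against 15.8 and 14.9 RPK. Of 47 homeobox genes with a tested pair, 11 (23.4%) were richer in H3K4me3 and 3 (6.38%) in H3K4me1, compared to 19.6% and 13.4% of all genes. Among those richer in H3K4me3 were Irx5 (145 and 447 RPK against 5.33 and 10.7 RPK), Dlx1 and Hoxa9. Zeb2, a repressor that is in the homeobox and the fibroblast list, was the highest of both, with 176 and 654 RPK against 5.15 and 7.96 RPK. Of 40 other developmental factors, 6 (15%) were richer in H3K4me3 and 5 (12.5%) in H3K4me1, which is near the shares of all genes. The members are given for their own values. Id3, an inhibitor of basic helix-loop-helix factors, had 38.7 and 162 RPK against 73.8 and 103 RPK, and Runx2, a regulator of bone formation, had 32.9 and 265 RPK against 54.8 and 55.9 RPK. Of 24 immediate early genes, 4 (16.7%) were richer in H3K4me3 (Fosl2, Ier2, Dusp6 and Fosb) and 3 (12.5%) in H3K4me1 (Junb, Jund and Egr3), which is near the shares of all genes (19.6% and 13.4%). If the promoter region with most H3K4me3 reads was taken, these counts were 7 and 2, and those of the other developmental factors 8 and 2. The secreted factors again had 3 and 7, and the fibroblast genes 5 and 4. The lists of other cell types had at most 2 tested genes each.

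**Figure D4:**
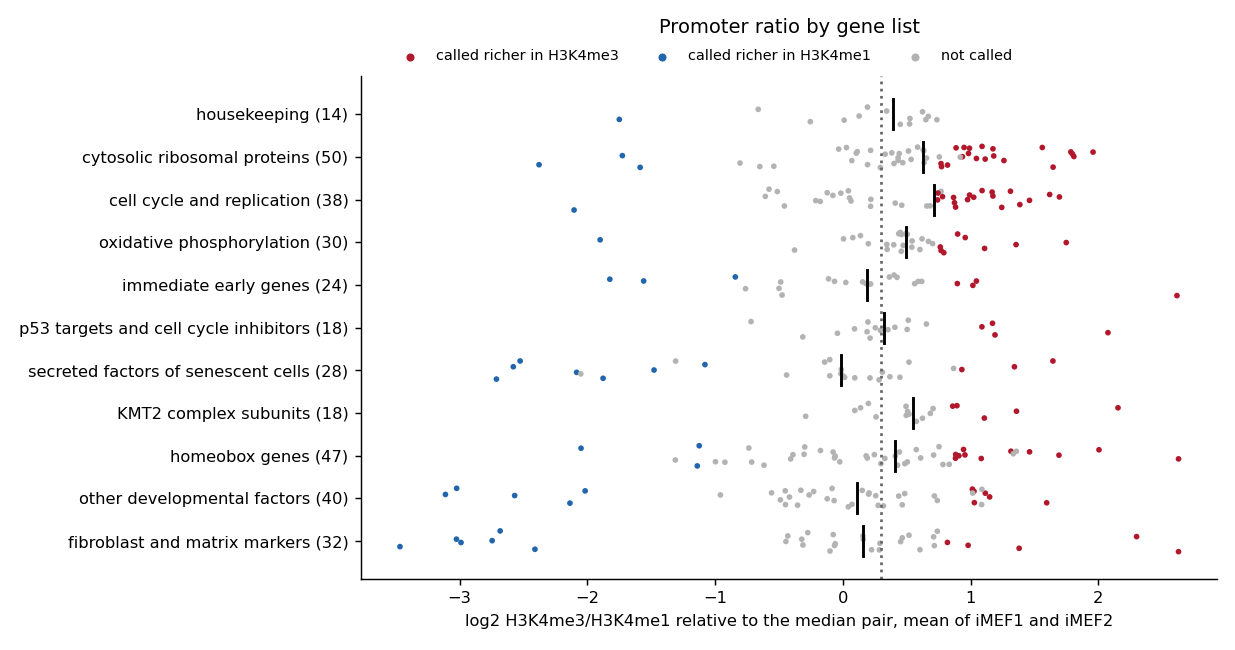
Relative log2 ratio of H3K4me3 to H3K4me1 (mean of iMEF1 and iMEF2) for the promoter region closest to the start site of each gene, by list, with the number of tested genes in parentheses. Bars mark list medians and the dotted line the median of all 10362 genes (0.30); red and blue points were called richer in H3K4me3 and H3K4me1. Cell cycle and ribosomal protein genes lie to the right, with medians of 0.71 and 0.63.

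The genes studied at single loci by the authors were spread over these classes. Hsp90b1, a chaperone of the endoplasmic reticulum, had 208 and 780 RPK of H3K4me3 against 34.6 and 46.3 RPK of H3K4me1. Cdh3, a cadherin, had 80.6 and 611 RPK against 42.7 and 39.2 RPK, and lay below the median pair in iMEF1 (-1.17) and above it in iMEF2 (0.22). Mapk12, a p38 kinase, had 105 and 452 RPK against 31.6 and 59.0 RPK. None of Hsp90b1, Cdh3 and Mapk12 was called. Rab27a, a GTPase of vesicle transport, was richer in H3K4me1 (75.1 and 466 RPK against 67.6 and 111 RPK), but its H3K4me1 region comprised only 207 bp with 14 and 23 reads. Flywch2 and Atp9a had H3K4me3 regions that met no H3K4me1, with 63.9 and 352 RPK and with 85.9 and 268 RPK. Olig1, Olfr456 and Cdh17 had no promoter H3K4me3 region.

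The sequence of the regions differed along the ratio. When the pairs were divided into 10 equal groups by their mean relative ratio, the median CpG observed/expected value of the H3K4me3 region was 0.32 in the lowest group, 0.36 in the second, 0.51 in the third and 0.57 in the fourth, and between 0.61 and 0.64 in the groups above. Promoter pairs of the lowest group had 0.30 and distal pairs 0.33, which are close to each other. The 82 distal pairs called richer in H3K4me3 had 0.63, as had the promoter pairs called in this direction. H3K4me3 promoter regions without H3K4me1 had the highest GC content, with 60.8% and 60.0 CpG per kb, compared to 53.3% and 41.5 CpG per kb for those that met H3K4me1. Distal H3K4me1 regions without H3K4me3 had 42.3% GC, 7.50 CpG per kb and a CpG observed/expected value of 0.17.

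Short motifs were counted on both strands in the central 300 bp of each region, with the share over all 138740 regions for comparison. The AP-1 motif TGANTCA, bound by Fos and Jun proteins, was present in 4.72% of promoter H3K4me3 regions that met H3K4me1, in 11% of distal H3K4me3 regions that met H3K4me1, and in 22.2% of distal H3K4me1 regions without H3K4me3 (17.2% of all regions). It was present in 19.7% of promoter H3K4me1 regions and 4.58% of distal H3K4me3 regions that met no region of the other mark. The GC box GGGCGG, bound by Sp factors, was present in 41.0%, 22.4% and 3.11% of these classes (11% of all regions), and the ETS motif CCGGAA in 15.6%, 9.22% and 2.43% (5.25%). The GC box, the ETS motif and the E-box CACGTG contain a CpG. The CCAAT box (letters CCAAT) was present in 24.7%, 27.3% and 35.7% (33.1%), the TATA box (TATAAA) in 6.97%, 14.3% and 25.6% (20.9%), the TEAD motif GGAATG in 12.8%, 17.1% and 20.8% (18.7%) and the E-box CACGTG in 5.99%, 5.75% and 3.20% (3.96%). TEAD and ETS motifs share the letters GGAA, and a match is a description of the sequence only. Within the tested pairs, AP-1 matches were found in 15.0% of the lowest and 3.71% of the highest group of the ratio, and GC boxes in 10.9% and 46.2%. Promoter pairs made up 16.7% of the lowest and 95.5% of the highest group, so these values also differ by place. Among promoter pairs, AP-1 matches were in 3.77% of those called richer in H3K4me3, 3.93% of those not called and 8.35% of those called richer in H3K4me1. GC boxes were in 45.5%, 43.1% and 31.2% of these promoter pairs, in the same order.

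**Figure D5:**
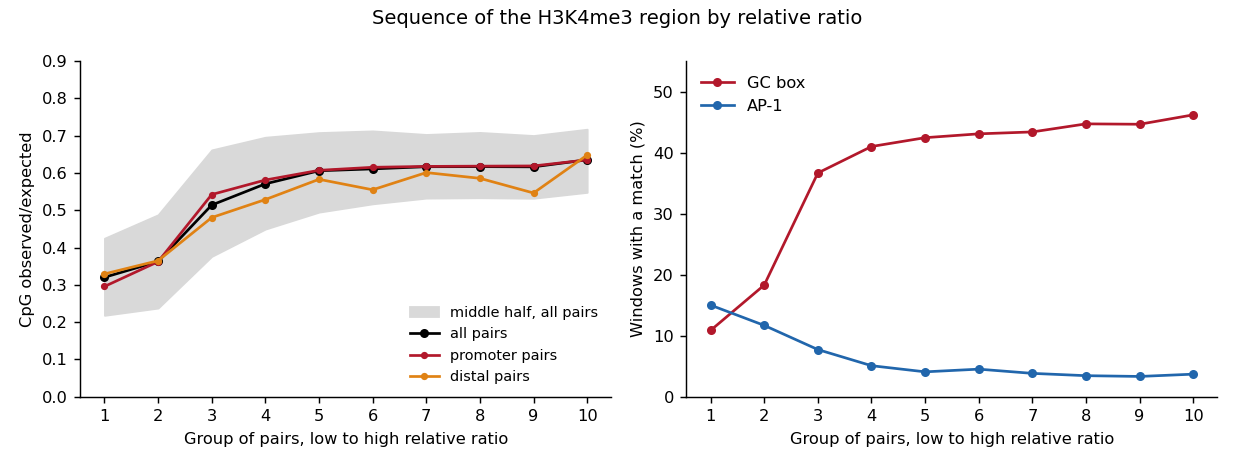
Sequence of the H3K4me3 region in 10 equal groups of pairs, from low to high relative H3K4me3/H3K4me1 ratio. Left, median CpG observed/expected of all (black), promoter (red) and distal (orange) pairs with the interquartile range of all pairs in grey; right, percent of central 300-bp windows with a GC box (red) or AP-1 (blue) match. The CpG value is 0.32 in the lowest and 0.64 in the highest group. Promoter pairs make up 16.7% of the lowest and 95.5% of the highest group.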

How the data were processed

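H3K4me3 and H3K4me1 ChIP-seq of KO cells -HOT was analysed in iMEF1 and iMEF2. According to the methods of the study, the authors trimmed reads with Trim_Galore, aligned them to mm9 with BWA, removed duplicates marked by Picard, called narrow (H3K4me3) and broad (H3K4me1) regions with Macs2 and normalized each line to its least covered library. For H3K4me3, the deposited signal is reads per region after this step of the authors. Multiplied by 1.333 (iMEF1) and 1.01 (iMEF2), 100% were whole within 0.001. The deposited H3K4me1 values are read counts. Deposited distances to start sites (bp, by Homer) gave promoters and gene names. The iMEF1 H3K4me1 table has 15 header lines and, on chromosome 1 (19197749 to 145960211), coordinates and values on straight lines. The 5615 H3K4me1 regions and 768 H3K4me3 regions there were left out. Promoters of H3K4me1 regions were taken from GENCODE start sites. Deposited columns of the authors' own comparisons were not used.

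For each pair and line, log2((H3K4me3 RPK + 1)/(H3K4me1 RPK + 1)) minus the median of the line was tested with limma 3.58.1 (R 4.3.3), which blocks by line, with Benjamini-Hochberg adjustment to 0.05. The test was also run on simulated data in which all unchanged pairs had the same expected ratio. The real pairs vary widely in their ratio, so this run does not show how the test behaves on them. Each line is 1 library per mark, therefore p-values rest on the spread between 2 lines, moderated toward a spread pooled over all pairs. Of the 4.30 degrees of freedom, 3.30 come from the pooled spread. Deviations of the marks within a line were not correlated (-0.0043). edgeR 4.0.16 on whole reads was an alternative, and further alternatives were the pseudocount, read minimum, overlap rule and scaling. Members, lists and rules were chosen with earlier results of these data known. Named genes were the 8 promoter and 5 distal called pairs per direction with the most extreme ratios that had at least 100 reads in the higher mark in both lines, the lowest, median and highest member of each list, the genes studied by the authors, and the 8 strongest regions with one mark only; further members of lists were named after their values were seen. Sequences are from NCBIM37 with GENCODE vM1. Some named items are not reported here.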

Additional observations from a re-analysis of the deposited data

Results flagged for a closer look

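Several values lay on opposite sides of the median pair in the 2 lines, and the difference between the lines was not tested for any of them. Cdh3 had a relative log2 ratio of H3K4me3 to H3K4me1 of -1.17 in iMEF1 and 0.22 in iMEF2, Cdh1 of 0.075 and -1.47, Foxp2 of 0.72 and -0.58, Irx2 of 0.89 and -0.065, Ereg of 0.11 and -0.14, and Kdr of -0.020 and 0.14. The median of the secreted factors of senescent cells was -0.26 in iMEF1 and 0.15 in iMEF2. The list of liver markers had 1 tested gene, Apoa1, with 0.27 and -0.89, and its H3K4me1 region held 2 and 6 reads. On the stretch of chromosome 1 that was left out, 616 of 768 H3K4me3 regions (80.2%) met an H3K4me1 region in the coordinates of iMEF2, compared to 78.3% elsewhere.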

How the results depend on the processing

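Without the replicate block, Ereg moved from -0.02 to 0.07 without being called in either fit, and no other named gene changed direction. By contrast, Eef1a1, Cdk4, Atp5g1, Junb and Col1a2 were below the median pair at the region closest to the start site and above it at the region with most H3K4me3 reads. Without the replicate block by line, 3935 instead of 2390 pairs were richer in H3K4me3, and 5073 instead of 5114 in H3K4me1, and 2360 and 4944 of the original calls were among them. With edgeR on whole reads and the replicate block the H3K4me3 count was 4234, and with a trend in limma 4579. With only H3K4me1 regions centered inside the H3K4me3 region, 1431 and 2960 pairs were called, 2415 pairs were more than 2-fold below the median pair, and the promoter to distal difference was 2.13 instead of 2.66. Scaling to all reads in regions gave 12012 and 223 calls, and 11230 and 4 pairs beyond 2-fold. Pairs more than 2-fold above the median pair were 1498 with the H3K4me1 region of largest overlap, against 977. When one line was left out they were 1466 to 1902, as fewer lines have to pass. When 50% of the shorter region had to be shared, 76.1% of H3K4me3 regions met H3K4me1 (promoter 81.8%, distal 62.9%) and 17.2% of H3K4me1 regions met H3K4me3 (promoter 58.5%, distal 4.06%). With more than 20 reads in both lines these shares were 86.4% (88.8% and 73.8%) and 20.4% (66.9% and 5.56%). The H3K4me1 density of low H3K4me3 promoters was 42.2 and 58.2 RPK where a pair existed, and 13.98 and 0 RPK with the others counted as 0. Including the stretch of chromosome 1 with the coordinates of iMEF2 and taking all promoters from GENCODE start sites (difference 2.68) were alternatives chosen after seeing the data. Apart from the reasons named, the causes were not tested. Of the named genes, 6 (Tfrc, Rps18, Bub1b, Ndufs7, Pagr1a and Kdm5c) were called in addition and Fam171b was lost without the block. Each mark had 1 library per line, the H3K4me3 library of iMEF1 was the shallower, and a narrow region there can hold a single read.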
